A study of Mus musculus with 58 samples.

Results

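The CXC chemokine ligands are small secreted or membrane-tethered proteins that draw leukocytes along a gradient, and 7 of their genes were followed here through 34 libraries of mouse microglia RNA. They were Cxcl1, Cxcl2, Cxcl9, Cxcl10, Cxcl13, Cxcl14 and Cxcl16, chosen by name with earlier results of these data known. The number of them called in a comparison therefore only describes this set. All 7 were found by their symbols among the 47643 genes listed in each library, of which 28781 had a count in at least 1 library. A further 8 CXC ligands are counted below among the other genes of the CXC axis. The libraries were made by QuantSeq 3′ mRNA-Seq, which reads a transcript near its 3′ end, so a count does not grow with the length of the gene. The study also holds 24 samples of cortex, which were not analysed here.

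The libraries formed 4 pairs of groups. Primary microglia of wild-type pups were given 2 µg/ml full-length tau fibrils (4 libraries) or vehicle (4 libraries) for 24 h. Adult microglia were taken with CD11b magnetic beads from the brains of male PS19 mice, which carry human tau with the P301S mutation (4 libraries), and of their non-transgenic (NTG) counterparts (4 libraries). The PS19 mice were 10.98 months old, and the NTG mice were 10.98 or 11.18 months old. In the third pair, IkbkbCA primary microglia were Cx3cr1CreERT2/+; IkbkbCA F/F, in which Cre switches on a constitutively active form of the kinase IKKβ (5 libraries), and their IkbkbWT controls were Cx3cr1+/+; IkbkbCA F/F (5 libraries). In the fourth pair, Ikbkb-/- microglia were Cx3cr1CreERT2/+; Ikbkb F/F, in which Cre deletes the gene of IKKβ (4 libraries), and the Ikbkb+/+ controls were Cx3cr1+/+; Ikbkb F/F (4 libraries). All 4 of these last groups, controls included, had received 4-hydroxytamoxifen in culture, and the Cre carriers had 1 copy of Cx3cr1 replaced by CreERT2, so Cre and the loss of that copy cannot be told apart from the change in IKKβ.

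The family splits by receptor. Cxcl1 and Cxcl2 act on Cxcr2 and call neutrophils, and their genes are classic early targets of NF-κB. Cxcl9 and Cxcl10 act on Cxcr3 of activated T cells and are induced by interferons, and Cxcl10 also answers to NF-κB. The paper counts Cxcl9, too, among the targets of NF-κB. Cxcl13 attracts B cells through Cxcr5, Cxcl14 is a homeostatic member of broad tissue expression, and Cxcl16 is made as a transmembrane protein that binds Cxcr6 and is shed by the proteases Adam10 and Adam17.

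In the mouse genome (GRCm38, GENCODE M21), 5 of the 7 genes lie on chromosome 5. Cxcl1 (ENSMUSG00000029380) spans chr5:90891241-90893115 and Cxcl2 (ENSMUSG00000058427) spans chr5:90903871-90905938, both on the plus strand and next to each other. Cxcl9 (ENSMUSG00000029417, chr5:92321347-92328079) and Cxcl10 (ENSMUSG00000034855, chr5:92346638-92348889) form a second pair on the minus strand, and Cxcl13 (ENSMUSG00000023078, chr5:95956951-95961068) lies apart on the plus strand. Cxcl14 (ENSMUSG00000021508) is at chr13:56288643-56296551 and Cxcl16 (ENSMUSG00000018920) at chr11:70453983-70459984, both on the minus strand. Cxcl10 lies inside the interval of Art3 on the other strand, with 0 to 19 Art3 counts in a library, and the first 552 bases of Cxcl16 overlap Zmynd15, also on the other strand, with 0 to 42 counts. How the counting treated strand is not given in the sources used here. Cxcl1 and Cxcl2 are near relatives, so reads that fit both genes are a further uncertainty of their counts.

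The promoters of both neutrophil ligands and both Cxcr3 ligands are shown because members of these pairs are compared below and NF-κB and interferon-activated factors bind short motifs of known letters. RefSeq's table for GRCm38.p6 had 6 of the 7 genes, all but Cxcl16. The 250 bases before each start were searched on both strands for the NF-κB type (GGG, then NNN, then TTCC). They were also searched for 2 types of the interferon-activated factors, ISRE (GAAA, then NN, then GAAA) and GAS (TTC, then NNN, then GAA). The first 200 of these bases, from 250 to 51 before the start, are given 5′ to 3′ on the strand of the gene, with the letters of every match in capitals. They cover chr5:90890995-90891194 (plus) for Cxcl1, chr5:90903649-90903848 (plus) for Cxcl2, chr5:92328130-92328329 (minus) for Cxcl9 and chr5:92348940-92349139 (minus) for Cxcl10.
Cxcl1: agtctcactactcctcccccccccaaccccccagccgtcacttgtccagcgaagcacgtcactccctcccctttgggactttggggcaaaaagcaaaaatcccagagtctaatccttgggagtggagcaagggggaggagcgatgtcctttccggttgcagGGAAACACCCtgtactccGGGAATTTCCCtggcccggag
Cxcl2: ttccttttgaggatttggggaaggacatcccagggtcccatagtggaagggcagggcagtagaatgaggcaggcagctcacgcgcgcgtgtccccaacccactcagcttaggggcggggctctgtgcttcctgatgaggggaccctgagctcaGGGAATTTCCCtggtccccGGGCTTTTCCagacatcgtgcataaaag
Cxcl9: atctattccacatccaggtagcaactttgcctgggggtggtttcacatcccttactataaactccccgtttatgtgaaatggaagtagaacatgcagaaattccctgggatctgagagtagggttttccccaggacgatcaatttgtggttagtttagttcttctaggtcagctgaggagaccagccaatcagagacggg
Cxcl10: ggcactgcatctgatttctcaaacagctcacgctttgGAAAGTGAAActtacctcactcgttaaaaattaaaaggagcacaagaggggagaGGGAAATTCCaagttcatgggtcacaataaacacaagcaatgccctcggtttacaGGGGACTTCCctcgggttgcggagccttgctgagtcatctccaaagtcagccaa
Cxcl1 and Cxcl2 shared the element GGGAATTTCC, whose letters overlap a match on the other strand, at 71 and 97 bases before the start, and each had 1 more NF-κB type match. Cxcl10 had 2 NF-κB type matches, at 159 and 104 bases, and an ISRE type match, GAAAGTGAAA, at 213 bases. Cxcl14 had 1 ISRE type match and 1 GAS type match, TTCTGAGAA, at 191 bases. Neither Cxcl9 nor Cxcl13 had a match of any of these types in the window. Of 32851 promoters of the same length, 4.65% held the NF-κB type motif, 2.98% the ISRE type and 7.02% the GAS type. A match describes the letters and is not evidence of binding.

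The libraries held 1672052 to 8349128 counts, and levels are given as TMM-normalized CPM (counts scaled to a common library size). The label of microglia was checked against 10 microglia markers, all of them detected in each group, whose summed level was 30773 to 45710 CPM in the adult libraries and 4573 to 22555 CPM in the cultured ones. P2ry12, a marker of resting microglia, was 3.73 to 9.22 CPM in the vehicle and tau fibril cultures. Ikbkb itself was 18.4 to 24.6 CPM in the Ikbkb-/- libraries and 44.6 to 55.1 CPM in the Ikbkb+/+ libraries (log2 fold change -1.20, edgeR quasi-likelihood test, Benjamini-Hochberg FDR 6.34e-07). In the IkbkbCA libraries it was 44.1 to 59.5 CPM against 39.8 to 57.7 CPM in IkbkbWT, and whether reads of the IkbkbCA transgene count on this gene is not known. Several libraries stood apart and are named beside the results they touch. The labels name all PS19 mice as male, yet PS19 replicate 1 held 175 CPM of Xist, the RNA of the inactive X chromosome. The other 7 adult libraries held 1.88 to 33.0 CPM of Xist. The Y-linked Ddx3y was 121 CPM in PS19 replicate 1, within the 104 to 237 CPM of the other 7. Because the samples are bulk RNA, fewer cells of a type and less RNA per cell cannot be told apart.

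**Figure D1:**
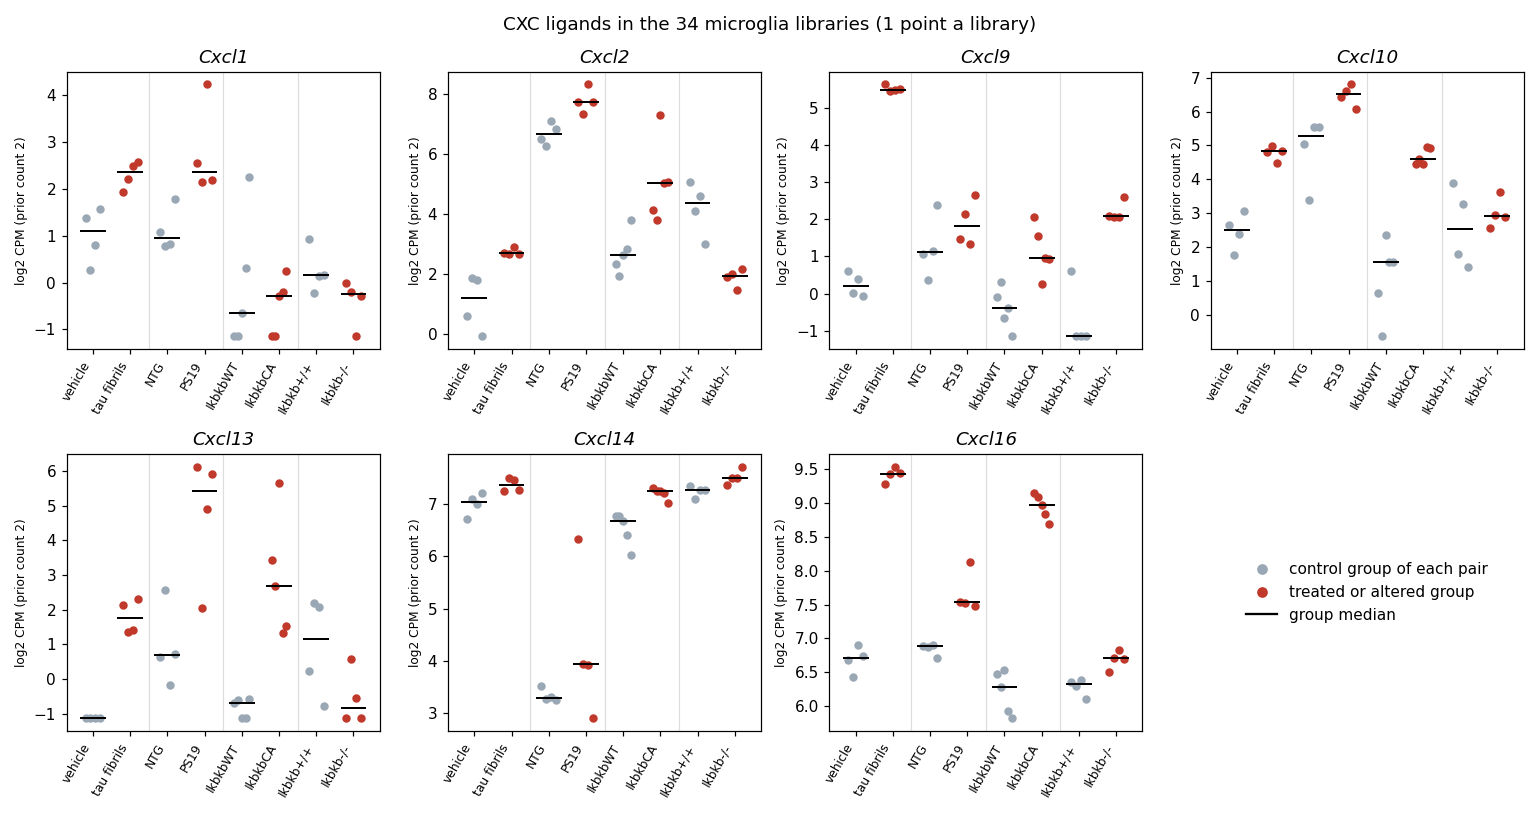
Level of each CXC ligand in each of the 34 libraries, as log2 CPM with a prior count of 2 on the vertical axis, by group on the horizontal axis (1 point a library, black bar the group median). Cxcl2 and Cxcl10 were highest in the PS19 libraries, Cxcl9 and Cxcl16 in the tau fibril libraries, and Cxcl14 was lower in each NTG library than in any cultured library.

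The question of the first pair was what tau fibrils do to cultured microglia, and 4 of the 5 ligands that passed the count filter rose. These were Cxcl2, Cxcl9, Cxcl10 and Cxcl16, with the Cxcr3 ligand Cxcl9 and the membrane-bound Cxcl16 moving from little and from moderate levels to the highest of any group. Of the 10408 genes tested in this comparison 29.9% were called, 14.5% higher and 15.4% lower. Every one of the 7 ligands, including the 2 below the filter, had each tau fibril library above each vehicle library, while 14.2% of the genes tested separated in this way.

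Cxcl9 was 48.9, 43.1, 44.3 and 44.6 CPM in the 4 tau fibril cultures and 1.07, 0.560, 0.865 and 0.500 CPM in the vehicle cultures. The vehicle libraries held 1 to 3 counts each, so the rise is given as at least 36.1-fold, computed against 3 counts in each library (edgeR quasi-likelihood test, Benjamini-Hochberg FDR 2.05e-14). Cxcl16 was 623, 687, 743 and 693 CPM with tau fibrils and 102, 86.0, 119 and 107 CPM with vehicle, so the groups were far apart and each was tight. Its log2 fold change was 2.72 ± 0.14 (SE), or 6.57-fold (edgeR, FDR 4.91e-15).

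Cxcl10, the other Cxcr3 ligand, was 27.8, 31.4, 21.8 and 28.2 CPM with tau fibrils and 5.87, 2.99, 4.75 and 8.00 CPM with vehicle. It rose 5.34-fold (log2 2.42 ± 0.29, edgeR FDR 2.41e-07). The neutrophil attractant Cxcl2 was 6.11, 5.86, 7.01 and 5.95 CPM with tau fibrils and 1.07, 3.17, 3.03 and 0.500 CPM with vehicle, a rise of 2.78-fold (log2 1.47 ± 0.45, edgeR FDR 0.0139). These Cxcl2 values rest on 11 to 19 counts with tau fibrils and on 1 to 17 counts with vehicle.

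Cxcl14 was 151, 181, 176 and 153 CPM with tau fibrils and 105, 137, 128 and 148 CPM with vehicle. The lowest tau fibril culture and the highest vehicle culture were almost level, and the log2 difference of 0.33 ± 0.13 did not pass the test (edgeR FDR 0.0624), while 0.40 without vehicle replicate 4 did (edgeR FDR 0.0310). Cxcl1, the partner of Cxcl2, was under the filter at 6 to 14 counts with tau fibrils (4.54 ± 0.97 CPM, SD, n = 4) and 3 to 5 counts with vehicle (1.67 ± 0.80 CPM). Cxcl13 had 5 to 9 counts in each tau fibril library (3.16 ± 1.19 CPM) and 0 counts in all 4 vehicle libraries, at least 2.53-fold higher against 3 counts in each library. For both of these genes the exact permutation test over the 8 libraries gave p = 0.0286, the smallest that 4 against 4 allows.

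Of all genes tested with tau fibrils, 14.5% were called higher and 15.4% lower. Among 63 further genes of the CXC axis, in lists chosen with earlier results of these data known, 39 were tested, 28 rose and 1 fell. The inducing receptors rose without exception among the 9 tested, and 13 of 17 inducing transcription factors rose while Jun fell. The largest of these rises was that of Irf7, the regulator of the interferon response (336 ± 40.0 against 4.22 ± 0.56 CPM, SD, n = 4, log2 6.32 ± 0.19), followed by Mmp9 (log2 4.31 ± 0.35), a protease that trims chemokines. Stat2 (log2 3.29 ± 0.17), Il1b (3.29 ± 0.20) and Nfkb2 (2.30 ± 0.21) rose as well, as did Adam17, a sheddase of Cxcl16 (1.22 ± 0.14). The receptors of these ligands were little seen. Cxcr1, Cxcr2, Cxcr3 and Cxcr5 had at most 3 counts in every one of these libraries, Cxcr6 had 0 counts with tau fibrils, and Cxcr4, the receptor of Cxcl12, was 160 ± 27.3 against 146 ± 46.0 CPM (edgeR FDR 0.705).

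Marker transcripts of several cell types moved with the treatment. The summed level of the 6 astrocyte markers was 248 to 281 CPM with tau fibrils and 396 to 441 CPM with vehicle, that of the 5 neuron markers 58.9 to 68.3 against 113 to 139 CPM, and that of the 10 microglia markers 10683 to 12199 against 4573 to 5870 CPM, and their part in the rise of the ligands was not tested. Total-count scaling turned the share of higher genes among all calls from 48.5% to 31.9% and shifted the median gene by -0.15 on the log2 scale, while the 4 ligands stayed called.

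In the second pair, which asks what the chronic tau disease of PS19 mice does to microglia in the brain, none of the 6 ligands tested passed the threshold, although all 6 were higher on average in PS19. Here edgeR called 0.0707% of 11323 genes higher and 0 lower, with 977 genes at an unadjusted p under 0.05. The ligands Cxcl1, Cxcl2, Cxcl10 and Cxcl16 had each PS19 library above each NTG library, as did 3.27% of the genes tested. Another 2.47% of genes separated in the lower direction. Spread between libraries was larger here than in any culture pair, with a biological coefficient of variation of 30.5%.

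Cxcl2 was 209, 158, 317 and 213 CPM in the PS19 mice and 90.5, 76.8, 136 and 114 CPM in the NTG mice. Every PS19 mouse lay above every NTG mouse, by 2.10-fold in the fit (log2 1.07 ± 0.25, edgeR FDR 0.193). Without PS19 replicate 2 the log2 difference of Cxcl2 was 1.23 and passed (edgeR FDR 0.0302). Cxcl1 had 30, 13, 123 and 24 counts in PS19 (5.37, 3.97, 18.2 and 4.09 CPM) and 3 to 6 counts in NTG (1.26 to 3.0 CPM). PS19 replicate 3 was high above its group, and the log2 difference of 2.17 ± 0.62 (edgeR FDR 0.331) was 1.35 without it. That library also had the highest summed level of the 5 granulocyte markers, 2438 CPM. The sum was 373 to 1574 CPM in the other PS19 and 1412 to 2088 CPM in the NTG libraries. The part of granulocytes in the level of Cxcl1 and Cxcl2 was not tested.

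Cxcl10 was 85.3, 96.6, 111 and 67.2 CPM in PS19 and 32.4, 10.1, 46.5 and 46.3 CPM in NTG. The groups did not overlap, with a difference of 2.60-fold (log2 1.38 ± 0.36, edgeR FDR 0.265). Its partner Cxcl9 was low in both, with 13 to 34 counts in PS19 and 2 to 8 in NTG (3.54 ± 1.73 and 2.26 ± 1.75 CPM, SD, n = 4), and the groups overlapped (exact permutation p = 0.2).

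Cxcl13, the B cell attractant, was uneven in PS19. It was 69.3, 3.67, 29.6 and 60.4 CPM in PS19 and 1.10, 5.45, 0.441 and 1.20 CPM in NTG. In PS19, 3 libraries stood far above all NTG libraries, while PS19 replicate 2 lay below NTG replicate 2. The fitted 20.6-fold difference (log2 4.36 ± 0.86) missed the threshold (edgeR FDR 0.108). Without PS19 replicate 2 the log2 difference was 4.77 and passed (edgeR FDR 0.0013). The size of the difference moved with other choices too, to 51.7-fold without NTG replicate 2 (edgeR FDR 0.157), 58.5-fold with age as a covariate (edgeR FDR 0.55) and 9.35-fold with the percent of reads outside genes as a covariate (edgeR FDR 0.0449). PS19 replicate 2 also had the largest share of reads outside annotated genes of all, 38.3%, against 19.9% to 34.8% in the other adult libraries. The B cell markers were 3.22 to 14.6 CPM in PS19 and 6.01 to 11.2 CPM in NTG, with 3 of 4 at 0 in each group.

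Cxcl14 was 80.1, 15.0, 14.8 and 6.99 CPM in PS19 and 11.0, 9.23, 9.47 and 9.01 CPM in NTG. Replicate 1, the library with the most Xist of the 8, held the highest value, and the log2 difference of 1.59 ± 0.64 (edgeR FDR 0.515) was 0.29 without it. That library also held the highest Mrc1 and Cxcr4 of the 8, 533 and 98.7 CPM. Cxcl16 was 186, 184, 280 and 177 CPM in PS19 and 118, 117, 120 and 104 CPM in NTG, with no overlap and a 1.76-fold difference (log2 0.81 ± 0.19, edgeR FDR 0.202).

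Whether the ligands passed in PS19 depended on the method. DESeq2 called Cxcl2, Cxcl10, Cxcl13 and Cxcl16 higher (FDR 0.00879, 0.0244, 0.0102 and 0.0122), and edgeR without the count filter called 6. With age as a covariate none passed in edgeR, and the lowest FDR was 0.55. The age of 11.18 months occurred only in NTG, so that fit sets PS19 against the NTG mice of 10.98 months and cannot show an effect of age. Of the 63 further genes of the axis, 46 were tested and none passed in the main edgeR fit, in which 0.0707% of all genes tested passed.

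In the third pair, which asks what a constantly active IKKβ does in cultured microglia, all 5 ligands tested rose: Cxcl2, Cxcl10, Cxcl13, Cxcl14 and Cxcl16. Of 11697 genes 14.5% were called, 7.31% higher and 7.16% lower. Cxcl10, Cxcl13, Cxcl14 and Cxcl16 had every IkbkbCA library above every IkbkbWT library, as did 6.37% of all genes tested (6.31% in the lower direction), and Cxcl2 had 4 of 5.

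Cxcl16 was 566, 545, 501, 458 and 412 CPM in IkbkbCA and 88.2, 77.3, 91.9, 60.5 and 56.0 CPM in IkbkbWT. The groups were far apart, and the rise was 6.54-fold (log2 2.71 ± 0.15, edgeR FDR 1.04e-06). Cxcl10 was 21.4, 23.6, 21.7, 30.8 and 29.7 CPM in IkbkbCA and 1.13, 0.200, 4.65, 2.52 and 2.53 CPM in IkbkbWT, a rise of 11.1-fold (log2 3.47 ± 0.42, edgeR FDR 0.000225). The IkbkbWT values of Cxcl10 rest on 1 to 25 counts.

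Cxcl2 was 17.2, 13.3, 157, 32.3 and 32.6 CPM in IkbkbCA and 4.53, 3.41, 5.76, 6.62 and 13.3 CPM in IkbkbWT. Replicate 3 was high above the other 4 IkbkbCA libraries, and the lowest of them was level with IkbkbWT replicate 5. The rise was 7.04-fold (log2 2.82 ± 0.68, edgeR FDR 0.016) and 3.47-fold without IkbkbCA replicate 3 (edgeR FDR 0.0115), while limma-voom did not call it (log2 2.28, FDR 0.0801). Cxcl13 was 10.3, 5.91, 50.2, 2.05 and 2.45 CPM in IkbkbCA and 0.162, 0.200, 0, 0 and 0.220 CPM in IkbkbWT. Its rise passed the test (edgeR FDR 0.0031). With 0 to 2 counts in each IkbkbWT library, the ratio of the group means was at least 28.3 against 3 counts in each. This bound leaves out the spread between libraries, and replicate 3 again led its group. Without that library the bound for Cxcl13 was 10.4-fold, and the rise still passed (edgeR FDR 0.000736).

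IkbkbCA replicate 3 differed in other genes too. It had 1352 CPM of Mmp9 against 14.1 to 22.6 CPM in the other IkbkbCA libraries, 73.3 CPM of Irf7 against 289 to 343 CPM, and 1603 CPM of the 5 oligodendrocyte markers against 283 to 559 CPM, and IkbkbWT replicate 3 had 4512 CPM of the latter. Replicates 4 and 5 of both genotypes shared neuron markers at 89.5 to 109 CPM, against 4.41 to 20.5 CPM in the other 6. With these 3 sets of libraries as a covariate, chosen after the data were seen, all 5 ligands stayed called, with log2 rises of 2.39 for Cxcl2, 3.52 for Cxcl10, 0.66 for Cxcl14 and 2.72 for Cxcl16 (edgeR, highest FDR 0.00045).

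Cxcl14 was 157, 153, 153, 148 and 130 CPM in IkbkbCA and 108, 109, 102, 84.1 and 64.8 CPM in IkbkbWT. The rise of 1.56-fold was small but larger than the spread (log2 0.64 ± 0.13, edgeR FDR 0.00503). Cxcl9 lay under the filter at 4 to 22 counts in IkbkbCA and 0 to 4 in IkbkbWT (1.98 ± 1.15 and 0.358 ± 0.305 CPM, SD, n = 5), with 4 of 5 IkbkbCA libraries above all controls and an exact permutation p of 0.0159. Cxcl1 did not follow Cxcl2. It had 0, 0, 2, 3 and 3 counts in IkbkbCA, and 0, 0, 1, 5 and 39 in IkbkbWT, where the 39 counts were those of replicate 5, the library with the highest Cxcl2 among the controls.

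Of all genes tested in IkbkbCA, 7.31% were called higher and 7.16% lower. Of the 63 further genes of the axis, 41 were tested, 20 rose and none fell in the edgeR fit. Among them were Il1b (log2 2.44 ± 0.43), the receptor Tlr2 (2.27 ± 0.11) and the interferon regulator Irf7 (262 ± 108 against 14.1 ± 3.66 CPM, SD, n = 5). All 4 of the tested processing enzymes rose: Adam17 (0.76 ± 0.08) and Adam10 (0.28 ± 0.08), which shed Cxcl16, Mmp2 (2.79 ± 0.38), and Mmp9 (4.72 ± 1.44), which rested on replicate 3. The receptor Cxcr4 rose from 200 ± 31.9 to 464 ± 66.6 CPM (log2 1.19 ± 0.13, edgeR FDR 9.13e-05). Markers of border-associated macrophages, summed over 6 genes, were 482 to 1026 CPM in IkbkbCA and 1371 to 1887 CPM in IkbkbWT, with 4 of the 5 tested lower. The 5 granulocyte markers summed to 16.2 to 84.7 CPM in IkbkbCA, highest in replicate 3, and to 5.83 to 10.8 CPM in IkbkbWT, with 1 of the 2 tested higher. Xist was 146 to 275 CPM in IkbkbCA, while it was 1.67 to 2.75 CPM in IkbkbWT replicates 1 to 3 and 450 and 471 CPM in replicates 4 and 5. The Y-linked Ddx3y was 48.9 to 84.0 CPM in IkbkbCA, 141 to 172 CPM in IkbkbWT replicates 1 to 3 and 1.10 and 1.98 CPM in the other 2. With Ddx3y as a covariate all 5 ligands stayed called (edgeR, highest FDR 0.0127). The part of these markers in the ligands' change was not tested. Total-count scaling turned the share of higher genes among all calls from 50.5% to 37.6%, with all 5 ligands still called.

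**Figure D2:**
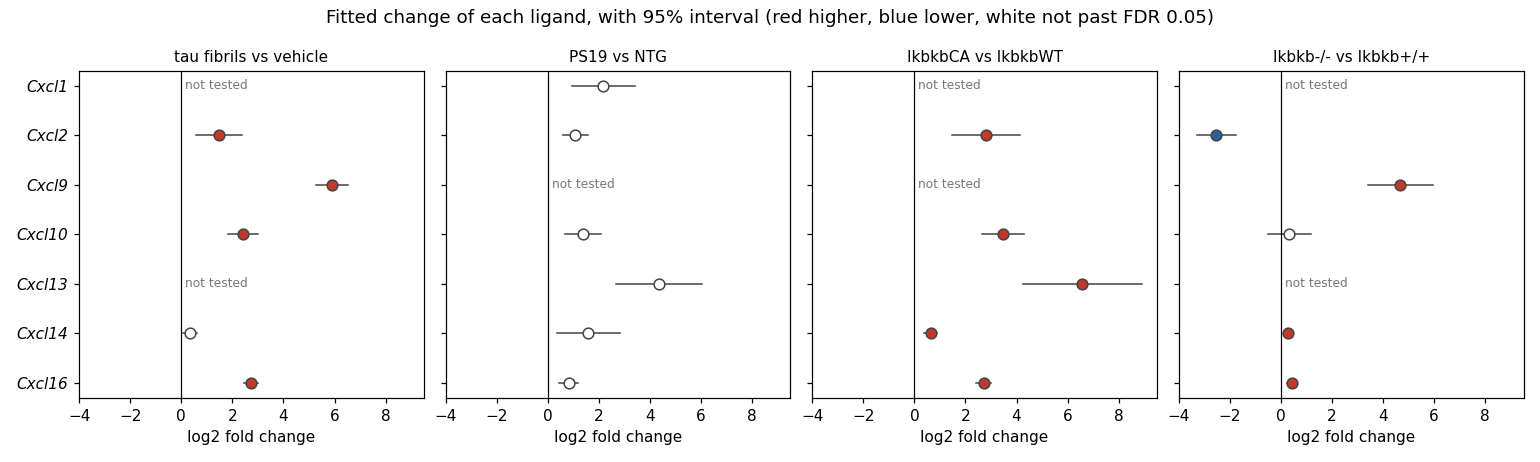
Log2 fold change of each ligand in each comparison (horizontal axis, point with its 95% interval from edgeR), with red for higher, blue for lower and white for not past the FDR threshold. Cxcl16 rose by 2.72 with tau fibrils and by 2.71 in IkbkbCA, while Cxcl2 was the only one of the ligands shown that was called lower in any comparison. The points of Cxcl9 with tau fibrils and in Ikbkb-/- and of Cxcl13 in IkbkbCA rest on control libraries of at most 3 counts each.

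In the fourth pair, which asks what the loss of IKKβ does, the ligands divided. Cxcl2 fell, Cxcl9, Cxcl14 and Cxcl16 rose, and Cxcl10 did not pass the test, among the 5 tested. Lower expression was called for 6.96% of 11242 genes and higher expression for 7.64%. The groups did not overlap for the 4 that passed, as for 8.64% of all genes in the lower and 9.46% in the higher direction.

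Cxcl2 was 3.28, 3.51, 2.30 and 4.0 CPM in Ikbkb-/- and 33.0, 16.8, 23.8 and 7.54 CPM in Ikbkb+/+. All Ikbkb-/- libraries lay below all controls, and the fall was 5.76-fold (log2 -2.53 ± 0.39, edgeR FDR 0.000171). The controls were themselves unequal. Ikbkb+/+ replicates 1 to 3 held the endothelial marker Cldn5 at 5.74, 7.78 and 4.59 CPM and the 5 granulocyte markers at 363, 84.4 and 32.3 CPM, while replicate 4, with the lowest Cxcl2, had 0 and 7.41 CPM. All Ikbkb-/- libraries had 0 Cldn5 and 7.46 to 11.6 CPM of granulocyte markers. The summed level of the 4 endothelial markers went the other way than Cldn5, at 161 to 213 CPM in Ikbkb-/- and 63.7 to 114 CPM in Ikbkb+/+. Single genes of that list were divided, with 2 of the 4 tested, 1 higher and 1 lower. The 6 markers of border-associated macrophages summed to 416 to 730 CPM in Ikbkb-/- and 1483 to 1816 CPM in Ikbkb+/+, with all 5 tested lower, and the 5 oligodendrocyte markers to 373 to 441 against 193 to 289 CPM, with 4 of 5 higher. The part of these markers in the fall of Cxcl2 was not tested. Against replicate 4 as the single control, which is then assumed to vary like the other group, Cxcl2 was 2.22-fold lower (log2 -1.15 ± 0.36). With Cldn5 as a covariate Cxcl2 was 2.37-fold lower (log2 -1.24 ± 0.40, edgeR FDR 0.0719). Since Cldn5 was 0 in replicate 4 and in all Ikbkb-/- libraries, that fit rests largely on the same contrast and is no separate check. Both alternatives were chosen after the data were seen. When all 18 libraries of the IkbkbCA and Ikbkb-/- experiments entered 1 edgeR fit, the log2 value of Cxcl2 was -2.56 and missed the threshold (FDR 0.0581).

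**Figure D3:**
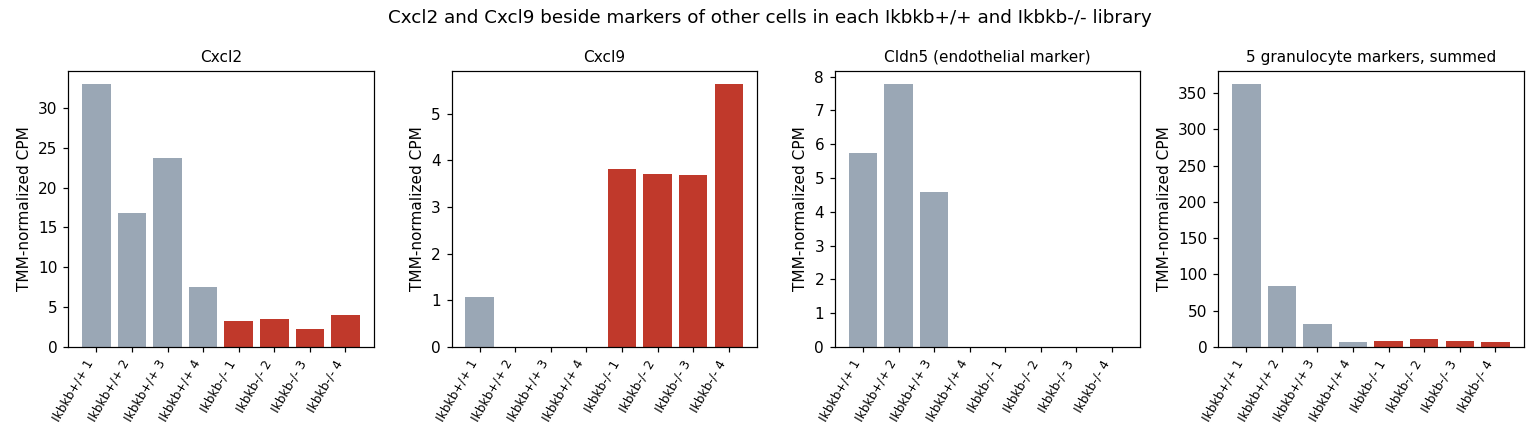
Cxcl2, Cxcl9, Cldn5 and the summed granulocyte markers in each Ikbkb+/+ (grey) and Ikbkb-/- (red) library, as TMM-normalized CPM on the vertical axes, which start at 0. Ikbkb+/+ replicate 4, with 0 Cldn5, had 7.54 CPM of Cxcl2, between the 16.8 to 33.0 CPM of the other controls and the 2.30 to 4.0 CPM of Ikbkb-/-.

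Cxcl9 moved the other way. It had 7, 18, 16 and 31 counts in Ikbkb-/- (3.82, 3.72, 3.69 and 5.64 CPM) and 3, 0, 0 and 0 counts in Ikbkb+/+. The rise was at least 6.52-fold against 3 counts in each control library (edgeR FDR 6.06e-05). Cxcl10, which shares its receptor, was 5.46, 7.22, 12.0 and 6.91 CPM in Ikbkb-/- and 14.4, 3.07, 9.18 and 2.25 CPM in Ikbkb+/+. The 2 groups of Cxcl10 overlapped fully (log2 0.33 ± 0.42, approximate 95% interval -0.50 to 1.16, edgeR FDR 0.678), and its direction turned without Ikbkb+/+ replicate 4 (log2 -0.05). Against that replicate alone, the control with the lowest Cxcl10, the ligand was 3.66-fold higher, a value that rests on 1 control library.

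Cxcl16 was 90.7, 104, 113 and 104 CPM in Ikbkb-/- and 81.1, 77.8, 83.2 and 68.2 CPM in Ikbkb+/+, a rise of 1.34-fold (log2 0.42 ± 0.09, edgeR FDR 0.00434) that missed the threshold in the fit of 18 libraries (edgeR FDR 0.0892). Cxcl14 was 164, 181, 181 and 210 CPM in Ikbkb-/- and 162, 137, 155 and 154 CPM in Ikbkb+/+. The 2 groups of Cxcl14 nearly touched, and the 1.22-fold rise (log2 0.29 ± 0.09, edgeR FDR 0.0315) passed in only 2 of the 8 fits that left out a library. Cxcl13 was low and uneven, with 2, 20, 23 and 1 counts in Ikbkb+/+ and 0, 5, 1 and 0 in Ikbkb-/- (2.18 ± 2.04 against 0.316 ± 0.490 CPM, exact permutation p = 0.143), and Cxcl1 had 2 to 5 and 0 to 2 counts.

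Sex could not be told apart from genotype here. Xist was 239 to 399 CPM in Ikbkb+/+ and 5.57 to 10.4 CPM in Ikbkb-/-, and the Y-linked Ddx3y was 34.9 to 68.2 against 154 to 172 CPM. Ddx3y did not overlap between the genotypes, so a fit with it as a covariate cannot separate sex from genotype. In that fit Cxcl2 had a log2 value of -4.38 ± 0.83 (edgeR FDR 0.00612). Cxcl9, Cxcl14 and Cxcl16 did not pass in it, Cxcl9 with an SE of 7.48.

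Of all genes tested in Ikbkb-/-, 7.64% were called higher and 6.96% lower. Of the 63 further genes of the axis, 42 were tested, 7 rose and 12 fell. The 1 other CXC ligand that was tested fell. Tnf (log2 -1.56 ± 0.29) and Il1a (-1.62 ± 0.45), cytokines that induce Cxcl2, were among those that fell. Irf7 (5.07 ± 0.20), Stat2 (2.73 ± 0.11) and Tlr3 (1.63 ± 0.18), genes of the interferon response, rose alongside Cxcl9.

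The differences between these effects were tested directly. No size is given for a ligand with at most 3 counts in each library of a group that enters the difference. The effect of IkbkbCA exceeded that of Ikbkb-/- for Cxcl2, Cxcl10 and Cxcl16, in a fit of 18 libraries in which 3.12% of 12352 genes were called in either direction. The difference was 5.39 ± 0.98 (log2, SE) for Cxcl2 (edgeR FDR 0.00334), 3.23 ± 0.70 for Cxcl10 (FDR 0.0121) and 2.31 ± 0.19 for Cxcl16 (FDR 4.71e-07). That of Cxcl2 was 4.35 without IkbkbCA replicate 3, and limma-voom did not call it (FDR 0.108). It did not pass for Cxcl14 (0.37 ± 0.17, edgeR FDR 0.299). Cxcl13, with 0 to 2 counts in the IkbkbWT libraries, was called by edgeR (FDR 0.00587) and not by limma-voom (FDR 0.256), and Cxcl9, with 0 to 3 counts in the Ikbkb+/+ libraries, was not called (edgeR FDR 0.455). The 2 pairs of groups come from separate experiments, and Cx3cr1 fell in both (log2 -0.56 and -1.16).

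Between the effects of tau fibrils and of IkbkbCA, 9.42% of 12841 genes were called. The only ligand among them was Cxcl9 (edgeR FDR 0.017), with 1 to 3 counts in the vehicle and 0 to 4 in the IkbkbWT libraries, and it no longer passed without IkbkbWT replicate 2 (edgeR FDR 0.0684). The rise of Cxcl16 differed by -0.07 ± 0.20 (log2, SE, edgeR FDR 0.873), that of Cxcl10 by -1.14 ± 0.55 (FDR 0.213), that of Cxcl14 by -0.38 ± 0.19 (FDR 0.231) and that of Cxcl2 by -1.44 ± 1.09 (FDR 0.457). Cxcl1 and Cxcl13 were not called either (edgeR FDR 0.123 and 0.850).

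That comparison shares the tau fibril and vehicle libraries with the next. Between the effects of tau fibrils in culture and of PS19 in the brain, 8.07% of 11852 genes were called, Cxcl16 and Cxcl9 among them. Tau fibrils raised Cxcl16 by 1.81 ± 0.23 more (log2, SE, edgeR FDR 1.39e-05), while the call of Cxcl9 (edgeR FDR 2.45e-05) rests on vehicle libraries of 1 to 3 counts and on PS19 and NTG libraries that were under the filter on their own. For Cxcl2 the difference was 0.29 ± 0.45 (edgeR FDR 0.772) and for Cxcl10 0.95 ± 0.49 (FDR 0.271), the latter 1.35 and called without NTG replicate 2 (edgeR FDR 0.0249).

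**Figure D4:**
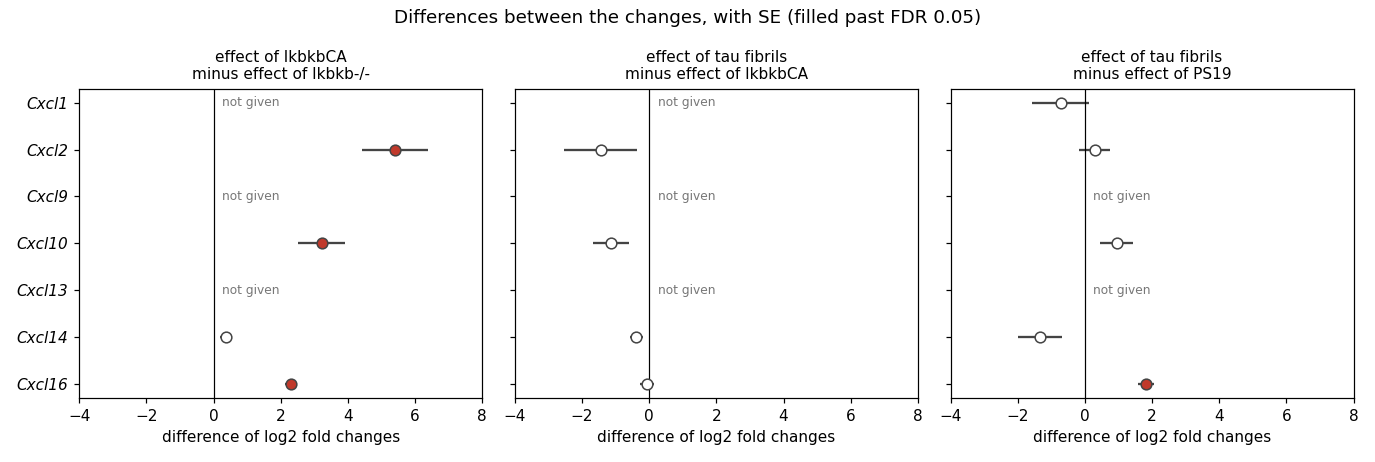
Difference between the log2 fold changes of 2 comparisons for each ligand (horizontal axis, point with its SE from edgeR), filled where it passed the FDR threshold. Cxcl2, Cxcl10 and Cxcl16 were filled for IkbkbCA minus Ikbkb-/- and Cxcl16 for tau fibrils minus PS19, and a ligand with at most 3 counts in each library of a group is marked as not given.

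Across the 8 groups the order of levels was particular to each ligand. It is given as a description, since the experiments differ in cell source and isolation, and adult brains were first digested with enzymes. The 5 granulocyte markers summed to 373 to 2438 CPM in the adult libraries and to at most 363 CPM in culture. The part of digestion and of granulocytes in these levels was not tested. Cxcl2 was highest in the microglia isolated from adult brain, 224 ± 66.4 CPM in PS19 and 104 ± 26.1 CPM in NTG, with IkbkbCA (50.5 ± 60.2) overlapping NTG. Ikbkb+/+ (20.3 ± 10.8), IkbkbWT (6.72 ± 3.87) and tau fibrils (6.23 ± 0.53) followed and overlapped in turn. Ikbkb-/- (3.27 ± 0.71) and vehicle (1.94 ± 1.36) were lowest and overlapped. Cxcl10 was likewise highest in PS19 (89.9 ± 18.4 CPM), and then NTG, tau fibrils and IkbkbCA, at 33.8, 27.3 and 25.4 CPM, overlapped. The remaining 4 groups of Cxcl10, at 2.21 to 7.89 CPM, overlapped with their neighbours.

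Cxcl9 had a single high group, tau fibrils at 45.2 ± 2.53 CPM, and the other 7, from Ikbkb-/- at 4.22 CPM down to Ikbkb+/+ at 0.269 CPM, overlapped with their neighbours. Cxcl16 fell into clear steps, with tau fibrils (686 ± 49.3 CPM), IkbkbCA (496 ± 62.8) and PS19 (207 ± 49.0) each free of overlap with the next group, then NTG, vehicle and Ikbkb-/- at 103 to 115 CPM, and Ikbkb+/+ and IkbkbWT at 77.6 and 74.8 CPM. Cxcl14 had the reverse placement of brain and culture. Its 6 culture groups lay at 93.7 to 184 CPM and overlapped with their neighbours, while PS19 (29.2 ± 34.1) and NTG (9.67 ± 0.89) were lowest. Cxcl13 was highest in PS19 (40.7 ± 30.0 CPM) and IkbkbCA (14.2 ± 20.4), with neighbours overlapping all the way down to vehicle at 0. Cxcl1 was at most 7.90 ± 6.88 CPM, in PS19, which overlapped tau fibrils at 4.54 ± 0.97 CPM.

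The genes whose log2 CPM over the 34 libraries lay nearest to each ligand's, after centring each gene, were named by the root mean square of the difference among 13477 genes. Nearest to Cxcl2 were Tnf (0.89) and Ccrl2 (0.91), an atypical receptor that binds chemerin, against 2.27 for the spread of Cxcl2 itself. Nearest to Cxcl10 were Spns3 (0.965) and the cytokine Il1b (0.967), and nearest to Cxcl9 were Slfn1 (1.06) and Oasl1 (1.11), both interferon-induced. Cxcl16 lay nearest to Ptger4 (0.50), a receptor of prostaglandin E, and to the class I gene H2-K1 (0.53). Cxcl14 lay nearest to Igf1 (0.41) and to the lipid droplet gene Plin2 (0.44), Cxcl13 to Rxrg and Gpr84 (both 1.44), and Cxcl1 to Nxpe3 (0.79) and Igf2bp2 (0.85). These libraries share experiments and depth, so the measure describes this set of samples.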

How the data were processed

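RNA of 34 microglia samples was sequenced with QuantSeq 3′ mRNA-Seq FWD. The authors mapped the reads to GRCm38 with the Lexogen QuantSeq pipeline, and deposited raw read counts per Ensembl gene, 1 library a file. Their methods name RSEM, while the deposited counts are whole and end in 5 summary lines, which were left out (12.4% to 38.3% of reads lay outside genes). Symbols came from GENCODE M21, and groups from the labels.

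Counts were tested in each comparison separately with edgeR 4.0.16 (R 4.3.3, TMM, quasi-likelihood test, filterByExpr with a minimum count of 10 and total of 15), with Benjamini-Hochberg adjustment over all genes tested and a threshold of 0.05. Differences between effects were tested in 1 fit of both experiments. For edgeR, the SE is the absolute log2 value divided by the square root of the F statistic of the test. Intervals are 1.96 SE on each side and can be too narrow with few libraries. DESeq2 1.42.0, limma-voom (limma 3.58.1), other scalings and filters, covariates and leaving out each library were alternatives. The model was checked on simulated counts. Levels are TMM-normalized CPM over all libraries. A ligand with at most 3 counts in each control library is given a bound against 3 counts in each, which covers counting error only, since reads are not molecules. No size of a difference between effects is given where a group had at most 3 counts in each library.

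The 7 ligands and the gene lists were chosen with earlier results of these data known. In each comparison at most 6 further genes of the axis that passed were named, by the largest change, and 1 gene of this rule is not reported here. Jun, Adam10, Adam17 and Cxcr4 were named after their values were seen. The labels do not say that replicates were separate cultures, so p-values measure the spread between these samples, which may be technical. Totals ranged from 1672052 to 8349128 counts.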

Additional observations from a re-analysis of the deposited data

Results flagged for a closer look

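In 9 of the 56 groups of libraries examined (7 ligands in 8 groups), 1 library lay apart from the rest, measured as its gap to the nearest library divided by the range of the group. The cut-offs used would pass about 1 of 20 groups of normally distributed values. CPM values near 0 are not distributed in that way, so no excess over chance is read from these 9. IkbkbCA replicate 3 was high for Cxcl2 (gap 0.866 of the range, 157 CPM against 13.3 to 32.6) and for Cxcl13 (0.829, 50.2 CPM against 2.05 to 10.3). PS19 replicate 3 was high for Cxcl1 (0.901, 18.2 CPM against 3.97 to 5.37) and for Cxcl16 (0.919, 280 CPM against 177 to 186). PS19 replicate 1 was high for Cxcl14 (0.891, 80.1 CPM against 6.99 to 15.0). NTG replicate 2 was high for Cxcl13 (0.848, 5.45 CPM against 0.441 to 1.20). IkbkbWT replicate 5 was high for Cxcl1 (0.816, 39 counts). Cxcl9 was high in Ikbkb-/- replicate 4 (0.929, 5.64 CPM against 3.69 to 3.82), and Ikbkb+/+ replicate 1 held 3 counts of Cxcl9 while the other controls held 0 (a gap of 1, the whole range).

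In 7 cases the effects of 2 comparisons differed for a ligand in the edgeR test of the difference. Between IkbkbCA and Ikbkb-/- the log2 difference was 5.39 for Cxcl2, 3.23 for Cxcl10 and 2.31 for Cxcl16, and between tau fibrils and PS19 it was 1.81 for Cxcl16. The other 3 cases have a group with at most 3 counts in each library, so their edgeR FDR is given in place of a size: 0.00587 for Cxcl13 between IkbkbCA and Ikbkb-/-, and for Cxcl9 0.017 between tau fibrils and IkbkbCA and 2.45e-05 between tau fibrils and PS19.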

How the results depend on the processing

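In PS19 the 8 genes called became 98 with DESeq2, 4 with limma-voom, 166 without the count filter and 0 with age as a covariate, and the ligands called rose from 0 to 4 with DESeq2, 6 without the filter and 1 once the percent of reads outside genes entered the fit. Requiring at least 10 counts in every library left 2 ligands higher with tau fibrils, 3 in IkbkbCA and 0 lower in Ikbkb-/-, since fewer ligands were then tested. The 3 sets of libraries as a covariate raised the IkbkbCA calls from 1692 to 2846. The 1641 calls in Ikbkb-/- became 875 in 1 fit of 18 libraries, 279 with Ddx3y, 595 with replicate 4 as the single control and 711 with Cldn5. The ligands called higher there fell from 3 to 1 in the fit of 18 and 0 with Ddx3y, and those called lower from 1 to 0 in the fit of 18, with the single control and with Cldn5, and to 2 without the filter. With limma-voom 2 of the 4 differences between IkbkbCA and Ikbkb-/- were called. The cause of these changes was not tested. The sets of libraries, the fit without replicate 3 of both genotypes, the single control and Cldn5 were chosen after the data were seen.

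Leaving out 1 library gave 4 to 54 genes and 0 to 2 ligands in PS19, the most without PS19 replicate 2, and 0 to 1 ligands for tau fibrils minus IkbkbCA, the 0 without IkbkbWT replicate 2 (Cxcl9 edgeR FDR 0.0684). Directions turned for Cxcl10 in Ikbkb-/- (-0.045 to 0.77 over the left-out libraries, -1.35 with Ddx3y), for Cxcl16 in tau fibrils minus IkbkbCA (-0.15 to 0.035, and 0.015 without the filter) and for Cxcl1 (-1.05 to 0.19) and Cxcl14 (-1.56 to 0.036) in tau fibrils minus PS19. Of these, Cxcl14 was called without the filter (-1.25, edgeR FDR 0.00322) and Cxcl10 with the single control. No paired analysis was possible because the labels give no replicate numbers that groups share. Depth limits Cxcl1, Cxcl9 and Cxcl13, which rested on few counts in most cultures.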
